A study of Mus musculus with 6 samples.

Results

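The 7 genes of the AP-1 family, Jun, Junb, Jund, Fos, Fosb, Fosl1 and Fosl2, were examined for H3K27ac in low pigment (LP) and high pigment (HP) melanoma cells. Every peak that overlapped one of these genes or the 20 kb on either side of it was taken, with gene positions from GENCODE for GRCm38, the assembly that mm10 names. The peaks of all libraries were merged into 182956 regions where they shared at least 1 bp, and 73 of these regions lay in the windows of these 7 of 21951 protein-coding genes. The windows also hold 12 other protein-coding genes. The cells were B16 F10, a mouse melanoma line labelled as melanocytes, seeded at 100 cells per cm2 and collected on day 5 of the progressive pigmentation model, in which cells gain pigment with time in sparse culture. LP and HP cells came from the same culture, had no treatment other than the culture itself, and were separated by side scatter, a flow cytometry signal that stands for pigment here and not for a marker protein. There were 2 replicates of each population, and 2 IgG libraries of unsorted cells had served only as the controls for peak calling. Nothing says that the replicates came from separate cultures, so the spread between these libraries may be technical. The p-values measure that spread pooled over all regions tested, and not the spread of each region.

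AP-1 is a transcription factor made of a pair of proteins, either 2 Jun proteins or a Jun and a Fos protein, that bind DNA through basic leucine zippers. Jun proteins can pair with themselves, while Fos proteins need a Jun partner. Jun and Fos are immediate early genes, switched on within minutes by kinase signals that reach the JNK and ERK kinases, and Fosl1 and Fosl2 follow more slowly. In melanoma AP-1 activity is associated with growth and with poorly pigmented, invasive states. H3K27ac, acetylation of lysine 27 of histone H3, marks active promoters and enhancers; it reports the state of the chromatin around a gene and not its RNA.

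Sequences of 5 elements are given first, as they carry the values described below. The promoter sequences of Jun and Fos are from RefSeq and run from 250 bases before to 50 bases after the start site, and the others are the 100 bases on either side of a summit in the GRCm38.p6 genome. All are written 5′ to 3′ on the strand of the gene, with motif matches in capitals.
Jun promoter, chr4:95052173-95052472, minus strand: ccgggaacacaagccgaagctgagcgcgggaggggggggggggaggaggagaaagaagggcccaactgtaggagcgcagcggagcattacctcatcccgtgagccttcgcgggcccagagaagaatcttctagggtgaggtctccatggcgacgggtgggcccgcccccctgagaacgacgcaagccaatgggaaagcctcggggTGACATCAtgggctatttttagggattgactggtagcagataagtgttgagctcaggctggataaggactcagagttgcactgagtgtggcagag
Fos promoter, chr12:85473640-85473939, plus strand: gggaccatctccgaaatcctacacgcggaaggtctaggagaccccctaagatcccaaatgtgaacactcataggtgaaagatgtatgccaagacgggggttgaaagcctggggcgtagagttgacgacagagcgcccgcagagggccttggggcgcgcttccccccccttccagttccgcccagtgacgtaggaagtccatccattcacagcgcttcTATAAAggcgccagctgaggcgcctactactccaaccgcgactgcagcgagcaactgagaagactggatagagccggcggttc
Junb −7.1 kb element, chr8:84985671-84985871, minus strand: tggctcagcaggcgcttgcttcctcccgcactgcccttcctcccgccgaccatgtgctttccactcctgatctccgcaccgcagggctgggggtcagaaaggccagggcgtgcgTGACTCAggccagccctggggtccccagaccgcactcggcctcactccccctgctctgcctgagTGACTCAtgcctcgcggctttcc
Fos −11.8 kb element, chr12:85462010-85462210, plus strand: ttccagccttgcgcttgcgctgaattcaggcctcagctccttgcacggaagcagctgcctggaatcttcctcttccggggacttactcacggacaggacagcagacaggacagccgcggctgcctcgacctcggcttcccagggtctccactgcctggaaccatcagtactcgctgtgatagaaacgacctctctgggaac
Fos −10.8 kb element, chr12:85463008-85463208, plus strand: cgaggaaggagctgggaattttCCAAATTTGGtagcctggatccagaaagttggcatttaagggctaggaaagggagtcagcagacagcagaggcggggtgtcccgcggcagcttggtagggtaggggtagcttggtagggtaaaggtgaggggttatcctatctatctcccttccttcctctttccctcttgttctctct

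The capitals in the Jun promoter mark an AP-1-like site, TGACATCA, which stood at base 206 and was found in 3.62% of all 32851 RefSeq promoters of the same length. In the Fos promoter they mark a TATA box, TATAAA, at base 218, a motif that 13.6% of promoters held. Both of these motifs were added to the search after the sequences had been seen. The search covered both strands, and it also took the AP-1 site TGAGTCA, the CRE TGACGTCA, the M-box core TCATGTG bound by MITF, and the CArG box bound by SRF, which 5.20%, 1.79%, 3.77% and 1.63% of all promoters held. None of these 4 had a match in the 300 bases searched for 6 of the members. Promoter bases outside these 300 were not searched, and sites that differ from the motifs were not counted. The search therefore cannot show that the promoter of Fos or of another member lacks a CArG box or a CRE. RefSeq and GENCODE place the Jun and Fos starts at the same base, and Fosb and Junb differ by at most 30 bp. The RefSeq start of Jund lies 1210 bp away from the GENCODE start, and that of Fosl2 299 bp away from the nearest one, so the bases around the GENCODE start of Jund were not searched. The Fosl1 promoter sequence was not analysed here.

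The capitals in the Junb −7.1 kb element mark 2 copies of the AP-1 site on the opposite strand, where it reads TGACTCA. Of the 2016 regions over 3 kb from any start site that were called in every library and had a full summit window, 3.92% held at least 1 copy within 100 bases of the summit. In the Fos −10.8 kb element the capitals mark a CArG box, which 0.931% of 4725 distal regions called in both HP libraries and neither LP library held. The Fos −11.8 kb element held none of the searched motifs.

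The libraries held between 11467942 and 15353176 fragments, and the lists had between 57942 and 71529 peaks. The height of a peak is its pileup, the number of fragments over its summit, and it was divided by the fragments of the library and multiplied by 1000000 (scaled pileup). Over the 12084 regions called in every library the median scaled pileup was 2.44 for LP replicate 1, 2.61 for LP replicate 2, 3.92 for HP replicate 1 and 6.59 for HP replicate 2, so HP replicate 2 stood apart from the other libraries. The median HP to LP log2 ratio was 0.92 over these regions, 0.57 within replicate 1 and 1.30 within replicate 2. The part of this shift in the values below was not tested. Centring each library on its own median took 1.01 from every log2 ratio, so every ratio below 1.01 turned negative. Centred ratios are given beside the ratios of the members. All 7 melanocyte marker genes (Mitf, Sox10, Pmel, Mlana, Tyr, Tyrp1 and Dct) had a promoter region in all 4 libraries, as did 0 of 4 keratinocyte, 1 of 4 immune, 1 of 3 endothelial and 0 of 4 fibroblast markers.

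Of the 7 genes, 6 had a region within 3 kb of their own start site in every library, and Fosl1 had no peak within 3 kb of any of its start sites in any library. For scale, the comparison of promoters below took 10115 genes with such a region, out of 21951 protein-coding genes. Of the 73 regions, 15 (20.5%) were called in all 4 libraries, against a background of 6.6% of all merged regions, and 49 (67.1%) were called in 1 library only, against 81.7%. The regions called once were shallow, with 5 to 18 fragments at the summit. By position, 15 regions lay at the member's own promoter, 21 at the promoter of another gene in the window and 37 were distal, more than 3 kb from any start site. Absence from a list means that the signal did not pass the calling threshold, and the lowest listed peaks had 5 or 6 fragments.

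Jun, the founding member of the family, is a gene without introns at chr4:95049034-95052222. Its promoter region, chr4:95049752-95054033, covered most of the gene and the sequence upstream of it. It also lay within 3 kb of starts of the noncoding genes Junos and Gm12703. The scaled pileup was 5.32 in LP replicate 1, 3.19 in LP replicate 2, 5.92 in HP replicate 1 and 15.9 in HP replicate 2, from 61, 49, 68 and 226 fragments. Values of other regions are given in the same order. Both HP libraries were above both LP libraries, but HP replicate 1 was only just above LP replicate 1. The log2 ratio was 1.23 ± 0.54 (SE, n = 2 per population), with an adjusted p of 0.105 in limma and a centred ratio of 0.22. This SE was pooled over all regions tested, so it is the same for every region below. LP replicate 1, LP replicate 2 and HP replicate 1 had separate peaks with summits on either side of the start site, whereas HP replicate 2 had a single peak of 4264 bp across it.

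Junb, which limits the activity of Jun in several settings, had its promoter region at chr8:84975698-84983425, the longest of the family at 7728 bp. The LP libraries had scaled pileups of 4.62 and 4.04, and the HP libraries had 6.71 and 9.75. The groups did not overlap, and both replicates gave a positive ratio, 0.54 and 1.27. The log2 ratio was 0.90 ± 0.54 (limma, adjusted p = 0.185), and the centred ratio was −0.11, so the direction turned once the shift of all regions was taken out. Peaks covered 3430 and 4992 bp of the region in the LP libraries, against 5330 and 7479 bp in the HP libraries.

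Jund, expressed steadily in many tissues and also without introns, had the ratio nearest 0 before centring and the lowest of the 6 after it. Its region, chr8:70695913-70700914, also lay within 3 kb of start sites of Iqcn and Gm11175. Scaled pileups were 9.16 and 5.15 for LP, then 6.62 and 10.0 for HP. The groups overlapped, and the ratio was −0.47 within replicate 1 and 0.96 within replicate 2. The log2 ratio was 0.25 ± 0.54 (limma, adjusted p = 0.670), and it was −0.76 from centred libraries.

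Fos, the main partner of Jun after a stimulus, had the lowest promoter of the 6 in 3 of the 4 libraries. Scaled pileups at chr12:85470801-85475199 were 3.49 and 2.21 for LP, then 3.83 and 9.82 for HP, from 40, 34, 44 and 140 fragments. The HP values were above the LP values, by little in replicate 1. The log2 ratio was 1.14 ± 0.54 (limma, adjusted p = 0.122), with 0.14 within replicate 1, 2.15 within replicate 2 and a centred ratio of 0.13.

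The Fos promoter region was called as more peaks in LP than in HP. In each LP library it was split into 2 peaks, an upstream one with its summit at −1593 or −1429 bp from the start site and 40 or 34 fragments, and one at the start site with 20 or 31 fragments. In each HP library a single peak covered both parts, with its summit at −183 or −110 bp. Fosb had the same numbers of peaks in another layout, with its start-site peak whole in every library. Its second LP peak had its summit at 1346 bp in replicate 1 (29 fragments, −log10 q-value 1.63) and at −856 bp in replicate 2 (15 fragments). These 2 of 6 promoters stood against a background of 1.82% of promoter regions with several peaks in both LP libraries and 1 in both HP libraries. This comparison was chosen after the peaks had been seen. For Fos, the peak nearest the start site was used in place of the highest summit, a choice made after these positions had been seen. LP had scaled pileups of 1.74 and 2.02, and HP had 3.83 and 9.82. The log2 ratio was then 1.71, with 1.14 within replicate 1 and 2.28 within replicate 2, and no test was made of it. The same choice left the values of Jun, Jund, Fosb and Fosl2 where they were. For Jun and Junb it gave no like-for-like value. The single peak of HP replicate 2 had its summit upstream of the start site, at −482 bp in Jun and −1665 bp in Junb. In the other libraries the summit of the peak used lay downstream.

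Fosb, like Fos an early responder, had the highest mean over the libraries and the widest spread, but it was the highest of the 6 only in LP replicate 1 and HP replicate 2. Scaled pileups at chr7:19307845-19311028 were 11.1 and 4.75 for LP, then 6.36 and 19.9 for HP. The groups overlapped and the replicates went opposite ways, −0.80 and 2.06, around a log2 ratio of 0.63 ± 0.54 (limma, adjusted p = 0.314) and a centred ratio of −0.38.

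Fosl2, a Fos protein without the activation domain of Fos, gave scaled pileups of 9.59 and 4.75 for LP at chr5:32134327-32137952, then 8.01 and 11.3 for HP. Here too the groups overlapped. The log2 ratio was 0.49 ± 0.54 (limma, adjusted p = 0.414) and −0.52 when centred.

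**Figure D1:**
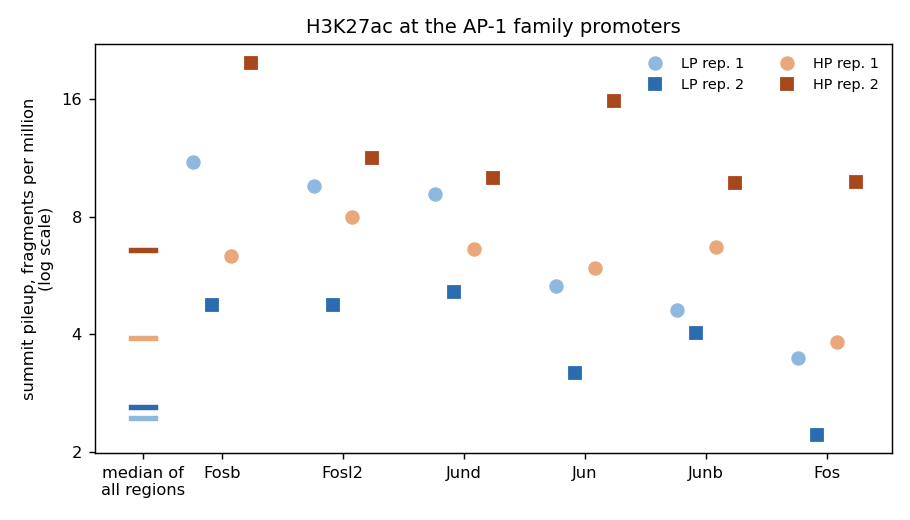
Scaled summit pileup, on a log scale, at the promoter region of each AP-1 gene, with 1 point per library and short bars for each library's median over all regions called in all 4. HP replicate 2 is the highest library at all 6 promoters and LP replicate 2 is the lowest, while LP replicate 1 lies above HP replicate 1 at Fosb, Fosl2 and Jund.

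By mean over the 4 libraries the promoters ranked Fosb at a scaled pileup of 10.5 ± 6.78 (SD), Fosl2 at 8.41 ± 2.78, Jund at 7.74 ± 2.25, Jun at 7.57 ± 5.64, Junb at 6.28 ± 2.58 and Fos at 4.84 ± 3.39. No neighbours in this order differed by more than their spread. Fosb was at percentile 92.0 and Fos at percentile 59.9 of the mean pileup over all regions called in every library. Peaks at the 6 promoter regions together covered 15041 and 19501 bp for LP, then 20150 and 27439 bp for HP. They were 15 and 16 peaks in LP, 14 in HP replicate 1 and 6 in HP replicate 2, where each promoter was a single peak, as were 94.4% of promoter regions in that library. Covered bases of both HP libraries exceeded those of both LP libraries at 3 of 6 promoters, Junb, Jund and Fos, against a background of 59.2% of promoter regions called in every library.

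None of the 15 member regions called in every library passed an adjusted p of 0.05 in limma, against a background of 4.01% higher in HP and none lower (0.0%). At an unadjusted p under 0.05, 5 of 15 were higher in HP and 0 lower, against 36.2% and 0.0%. They were the promoters of Jun and Fos, the distal Fosb −9.9 kb element, and the regions Junb +9.3 kb and Fosl1 +9.9 kb at promoters of other genes. Both HP libraries were above both LP libraries in 9 of 15, against 74.8%. The median log2 ratio of the 15 was 0.78, beside 0.92 over all regions. With centred libraries it was −0.23, beside −0.09 over all regions, and 0 of 15 had both HP above both LP libraries, against 12.1%, while 3 of 15 had both below, against 17.1%. At an unadjusted p under 0.05, 0 of 15 were then higher, against 1.46%, and 0 lower, against 2.28%.

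Of the 15 regions, 5 had a negative ratio within replicate 1 and a positive one within replicate 2, against a background of 17.5%, and 18.6% had opposite signs in either order. The median log2 ratio of the 6 promoters was 0.77, beside 0.81 over the 4734 promoter regions with a mean pileup at or above that of Fos, the lowest of the 6. Within replicate 1 it was −0.06, beside 0.33 in those 4734 regions, and 3 of 6 promoters, Jund, Fosb and Fosl2, were lower in HP. A negative ratio within replicate 1 was found in 26.7% of the 4734. Within replicate 2 the median was 1.67, beside 1.30, and 6 of 6 were higher in HP, as were 4731 of the 4734. Without HP replicate 2 the median of the 6 promoters was 0.35 and 0 of 15 member regions passed. Without HP replicate 1, a fit that assumes the remaining HP library to vary like the LP pair, 9 of 15 member regions passed an adjusted p of 0.05, against 57.3% of all regions.

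**Figure D2:**
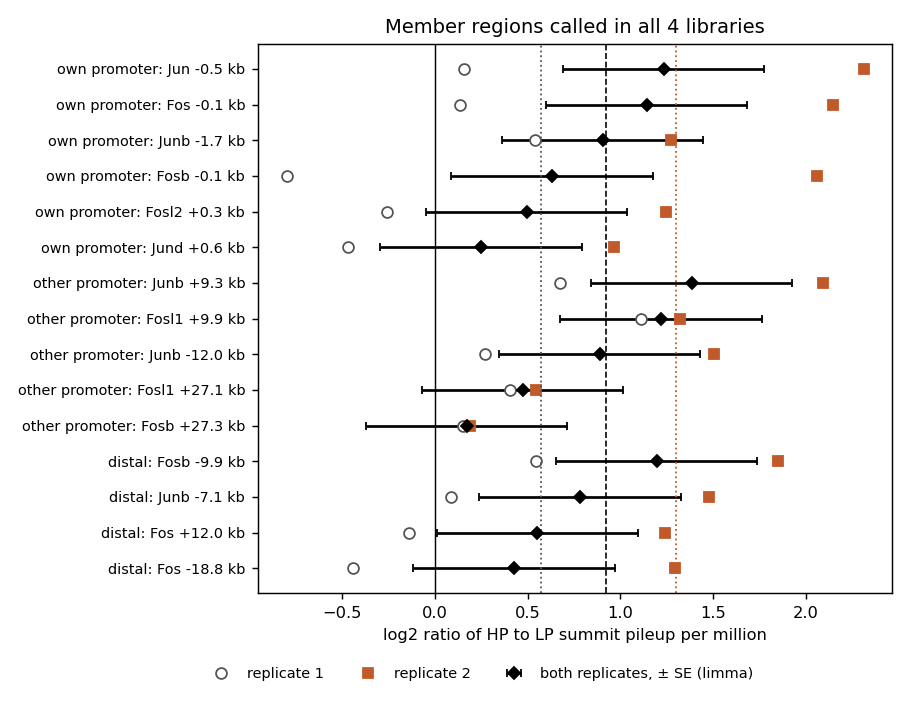
HP to LP log2 ratio of scaled summit pileup for the 15 member regions called in all 4 libraries, named by the distance of the summit from the gene's start site. Diamonds with bars are the limma estimate ± SE, circles and squares are replicates 1 and 2, the dashed line is the median of all 12084 regions and the dotted lines are their medians within each replicate. All 15 estimates are above 0 before centring, as are 99.0% of all regions, while 5 of the 15 circles are below 0.

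Few distal regions around the AP-1 genes were called in every library, though a larger share than among all distal regions. Of the 37 distal regions, 4 (10.8%) were called in all 4 libraries, against a background of 1.53% of distal regions, and they belonged to Junb, Fos and Fosb. The Junb −7.1 kb element, with the 2 AP-1 sites shown above, had scaled pileups of 2.79 and 2.54 for LP, then 2.96 and 7.09 for HP. The Fosb −9.9 kb element had 2.27 and 2.28 for LP, then 3.31 and 8.21 for HP. In both elements the HP libraries were above the LP libraries, with log2 ratios of 0.78 and 1.20 (limma, adjusted p = 0.233 and 0.112) and centred ratios of −0.23 and 0.19.

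The other two elements flank Fos. The Fos −18.8 kb element had 2.96 and 2.08 for LP, then 2.18 and 5.12 for HP. The Fos +12.0 kb element had 2.88 and 2.34 for LP, then 2.61 and 5.54 for HP. In each of them HP replicate 1 lay between the LP libraries, so the groups overlapped. The log2 ratios were 0.43 and 0.55 (limma, adjusted p = 0.476 and 0.369), and −0.59 and −0.46 when centred. The median over the 4 distal elements was 0.67, beside 1.06 over all distal regions called in every library, and −0.34, beside 0.05, when centred.

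Of the 7 genes only Fos had regions called in both HP libraries and neither LP library. At least 1 such region lay in 26.3% of the windows of all protein-coding genes, and at least 2 lay in 9.54%. The Fos −11.8 kb element, chr12:85461636-85462427, had scaled pileups of 2.00 and 2.17 in HP, from 23 and 31 fragments. The Fos −10.8 kb element, chr12:85462822-85463304, which holds the CArG box shown above, had 1.04 and 1.61, from 12 and 23 fragments. Both are intergenic. The lowest peaks listed anywhere for the LP libraries had scaled pileups of 0.436 and 0.391. The calling threshold varies between sites with the background, so the lists cannot show that acetylation was absent from LP at these elements. These were 2 of 73 member regions (2.74%), against a background of 3.94%, and 2 of 37 distal ones (5.41%), against 3.58%. Of the 73, 0 were called in both LP and neither HP library, against 0.249%, a share too low for 0 of 73 to differ from it. With regions merged across gaps of 500 bp, the count of member regions called in both HP and neither LP library was 1.

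In 3 further distal regions, Jund −16.2 kb, Fosb +5.3 kb and Fosb −17.2 kb, a peak was called in every library other than LP replicate 1. The remaining 28 were called in 1 library, 8 in HP replicate 1, 10 in HP replicate 2, 3 in LP replicate 1 and 7 in LP replicate 2.

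**Figure D3:**
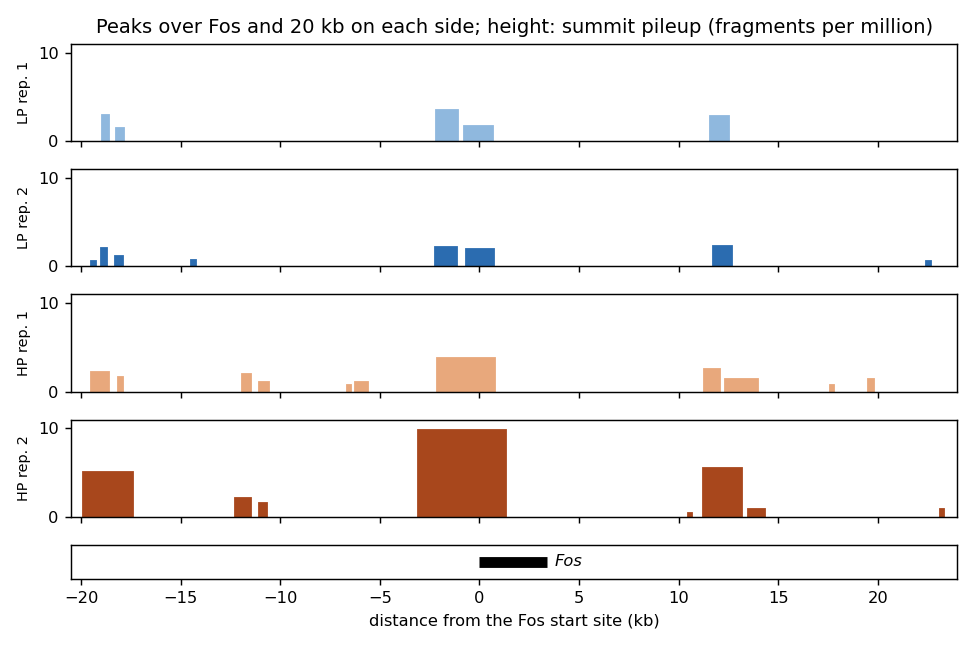
Peaks over Fos and 20 kb on each side in each library, with distance from the Fos start site in kb on the horizontal axis and the scaled summit pileup as the height of each block. The 2 peaks near −12 and −11 kb appear in both HP libraries only. The promoter region is split into an upstream peak and a start-site peak in both LP libraries, and a single peak covers both parts in both HP libraries.

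The window of Fosl1, which responds to sustained ERK signalling, held acetylation only at other genes or in single libraries. Its 2 regions called in every library were Fosl1 +9.9 kb, at the promoters of Ccdc85b and Fibp, with a log2 ratio of 1.22 (limma, adjusted p = 0.108), and Fosl1 +27.1 kb, at the promoter of Efemp2, with 0.47 (limma, adjusted p = 0.433). Their centred ratios were 0.21 and −0.54. The window of Junb held Junb +9.3 kb, at the promoters of Prdx2, Rnaseh2a and Gm49661, with 1.39 (limma, adjusted p = 0.0824, the lowest of the 15), and Junb −12.0 kb, at the promoter of Hook2, with 0.89 (limma, adjusted p = 0.191). These were 0.37 and −0.12 when centred. Fosb +27.3 kb, at the promoters of Ppm1n and Rtn2, had 0.17 (limma, adjusted p = 0.769) and −0.84 when centred.

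The bases covered by peaks over the windows gave the genes a different order. In the Fos window peaks covered 4232 and 4895 bp for LP, then 8874 and 11236 bp for HP, a ratio of 2.20 that stood at percentile 80.2 of 14824 protein-coding genes with a peak in every library. Fosb had a ratio of 2.10, Junb 1.73, Jund 1.63, Fosl1 1.60, Fosl2 1.22 and Jun 1.07, and the median gene had 1.62. HP libraries covered more than LP libraries in the windows of Junb, Jund, Fos, Fosb and Fosl1, while Jun and Fosl2 overlapped between groups. These 5 of 7 windows stood against a background of 51.9% of the 14824 genes. Over all 7 windows the covered bases were 22999 and 33348 for LP, then 40778 and 53667 for HP, a ratio of 1.68, and the whole lists had 1.54. With 2 against 2 libraries an exact permutation test cannot go below 0.333, so no test was made.

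**Figure D4:**
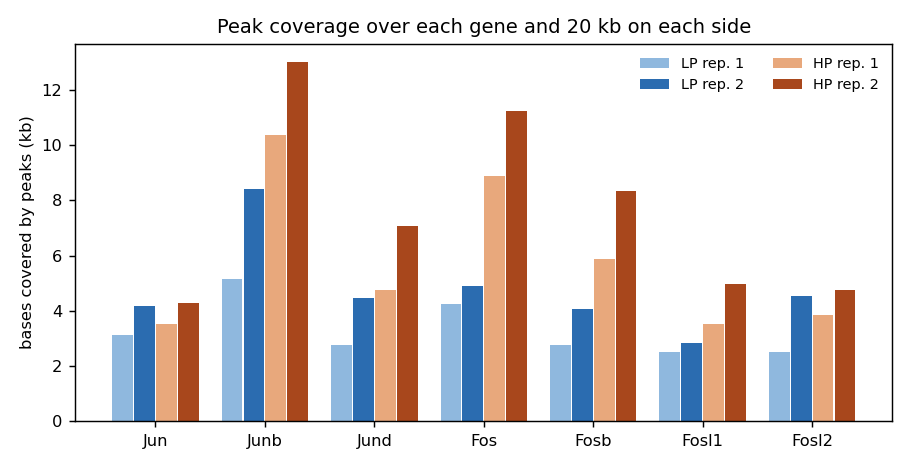
Bases covered by peaks, in kb, over each AP-1 gene and 20 kb on each side, with 1 bar per library. Both HP bars are above both LP bars for Junb, Jund, Fos, Fosb and Fosl1, and the bars of Jun and Fosl2 overlap.

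The promoters most like the AP-1 promoters were named by their distance to the median log2 scaled pileup of the 6 promoters in the 4 libraries. Among 10115 genes these were Gpx4 at a distance of 0.114, Tex2 at 0.115, Suco at 0.128, and Eif4a1 and Senp3, which share a region, at 0.153.

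Of the 50 other genes of the pathway, 39 had a promoter region in every library. For scale, the comparison of promoters above took 10115 genes with such a region, out of 21951 protein-coding genes. None of the 39 passed an adjusted p of 0.05 in limma, against 4.01% of all regions. At an unadjusted p under 0.05, 11 of the 39 were higher in HP, against the background of 36.2%. Their median log2 ratio was 0.87, beside 0.92 over all regions, and −0.14, beside −0.09, when centred. The ratios given below are not centred, and those below 1.01 turned negative with centring. The centred list medians were −0.37 for dimer partners, −0.14 for kinases, 0.04 for Srf and the Elk factors, −0.06 for immediate early genes and −0.10 for targets.

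Among the dimer partners, bZIP proteins that pair with Jun or Fos, 11 of 12 had such a region, with a median of 0.64. Atf7 had 1.32 and Batf3 1.08 at the upper end, and Mafg 0.13 and Atf3 0.26 at the lower end. Of the upstream kinases, 9 of 10 had a region, with a median of 0.87. The ERK1 gene Mapk3 had 1.25 and the JNK1 gene Mapk8 had 1.11, while Map3k1 had 0.44 and Mapk10 had no peak. Srf and the Elk factors, 4 genes in all, each had a region, Elk3 with 1.19, Elk1 with 1.18, Srf with 0.91 and Elk4 with 0.35. Their median was 1.05.

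Of the immediate early genes, 10 of 12 had a region in every library, with a median of 0.95. Myc, a driver of growth, had scaled pileups of 0.872 and 1.63 for LP, then 2.87 and 4.70 for HP. Its log2 ratio of 1.62 was the largest of the pathway genes and missed the threshold (limma, adjusted p = 0.0532). The centred ratio of Myc was 0.61, and limma with the replicate block gave an adjusted p of 0.0662. Before centring Btg2 had 1.21, Klf6 0.31 and Klf4 0.77. Egr3 was called in both HP libraries only, at scaled pileups of 2.79 and 1.82, and Egr2 in HP replicate 2 only, at 4.35.

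Of 12 genes known as AP-1 targets, 5 had a promoter region in every library, with a median of 0.92. The cyclin D1 gene Ccnd1 had 1.24, Vim 1.04, Hbegf 0.86 and Dusp1 0.48. Of the other 7, Mmp3 had no peak, Mmp13 was called in HP replicate 1 only, Plau in LP replicate 2 only, and Mmp9 in every library other than LP replicate 1. Plaur was missing in LP replicate 2, Cd44 in LP replicate 1, and Timp1 was called in HP replicate 2 only.

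**Figure D5:**
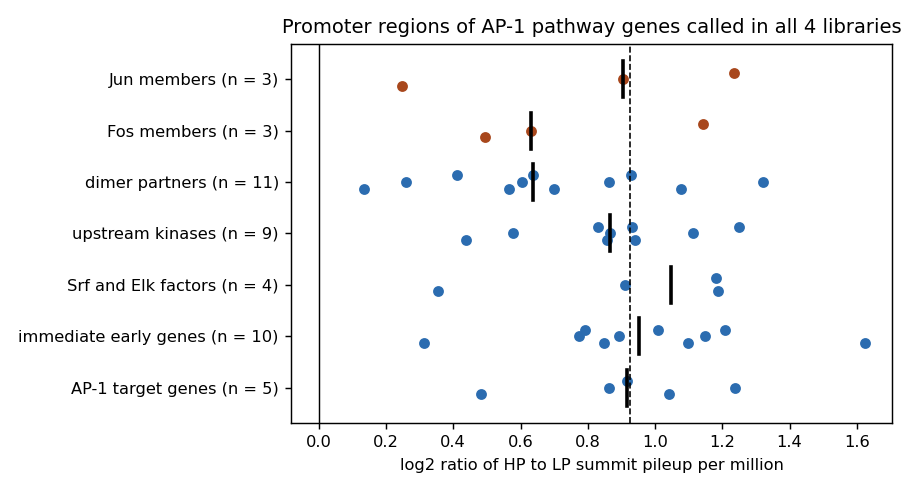
HP to LP log2 ratio of scaled summit pileup at the promoter regions of AP-1 members and of other genes of the pathway, with 1 point per gene, a black bar at each list's median and a dashed line at the median of all 12084 regions. All points lie above 0 before centring, as do 99.0% of all regions. The medians run from 0.63 for the Fos members to 1.05 for Srf and the Elk factors.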

How the data were processed

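H3K27ac ChIP-seq libraries of LP and HP cells were grouped by their labels. The authors trimmed reads (Trimmomatic 0.33), aligned them to mm10 (Bowtie2 2.5.1) and ran MACS 3.0.0b1 on each library for narrow peaks, with the IgG library of its replicate set as control, duplicates kept and a q-value cutoff of 0.05. The pileup in the deposited lists is a signal, the whole number of fragments over the summit, not scaled for depth. The fold enrichment and the −log10 p- and q-values that the authors deposited entered no test, and q-values served for the stricter lists. The score that the authors deposited, a multiple of the −log10 q-value, was not used. Total fragments came from the deposited MACS output.

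A region's pileup was the highest of its summits. limma 3.58.1 in R 4.3.3 compared log2 scaled pileups over the regions called in all 4 libraries, without a replicate block and with Benjamini-Hochberg adjustment over all of them. The prior degrees of freedom were infinite, so the SE was 0.54 for every region. A gene's promoter region was that of highest mean pileup within 3 kb of its start sites. Named genes were the 7 members with their regions called in every library or in 1 population only, the pathway genes of the 2 highest and 2 lowest ratios per list and those without a region in every library, and the 5 nearest promoters. Pathway genes lacking a value entered no median. Some genes that this rule would name are not reported here.

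Replicates were paired by number, as LP and HP were sorted from the same culture and prepared as replicate sets. The deviations of same-numbered libraries correlated at 0.0153 over regions. Alternatives were other scalings, summits, thresholds, windows and libraries. The members and lists were chosen with earlier results of these data known. Merging was checked on a small made-up set of peaks. The limma code was checked on simulated data, where recovery was required only for large changes at a spread far below the real one. That simulation held no shift between libraries. Python 3.11.15, pandas 2.3.3, numpy 2.4.6, pysam 0.24.0 and matplotlib 3.10.9 were used. DiffBind, which needs reads, was not run.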

Additional observations from a re-analysis of the deposited data

How the results depend on the processing

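The call that none of the 15 AP-1 regions passed the adjusted threshold held under centring, quantile normalization, scaling by fragment length, the replicate block, mean summits, stricter q-values, wider merging and other windows. It ended only without HP replicate 1, a fit with a single HP library. There the median log2 ratio was 1.41 for the 15 AP-1 regions and 1.12 for 39 pathway promoters, beside 1.27 over all regions. The count over all regions, 485, was 88 with the replicate block, 9 with scaling by fragment length, 33 at a q-value of 0.001, 0 with centring, quantile normalization or mean summits, and 0 to 6930 with a library left out, the highest without HP replicate 1 and 0 without any of the other three. The replicate block changed no call of an AP-1 region.

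The median promoter ratio of 0.77 was −0.24 with centring, −0.0287 with quantile normalization, 1.32 with mean summits, and −0.0621 to 1.67 with libraries left out, lowest without replicate 2 and highest without replicate 1. It was 1.31 without HP replicate 1, where Jun, Fos, Fosb and Junb had adjusted p-values of 0.00234, 0.00392, 0.0171 and 0.0479 in limma. Centring turned Junb to −0.11, Jund to −0.76, Fosb to −0.38 and Fosl2 to −0.52, and quantile normalization turned them to −0.0080, −0.56, −0.049 and −0.28. Mean summits turned Fosl2 to −0.095. Jund fell to −0.17 and Fosl2 to −0.012 without LP replicate 2, Jund to −0.053 and Fosb to −0.19 without HP replicate 2, and Jund to −0.47, Fosb to −0.80 and Fosl2 to −0.26 without replicate 2, while without replicate 1 they had 0.96, 2.06 and 1.25. The count of 2 regions found in HP only was 0 with windows of 5 kb, 8 with 50 kb, 1 with merging across 500 bp, 17 without replicate 1 and 26 without replicate 2, where single lists are compared. The ratio of covered bases, 1.68, was 1.47 with 5 kb. The cause of these changes was not tested. Peaks of 5 to 18 fragments limit what can be said of regions called once.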
